A study of Mus musculus with 26 samples.

Results

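The genes of mitochondrial protein import were described in the proximal small intestine (SI) of mice with an inducible knockout in intestinal epithelial cells (IECs) and of their controls. The genes were chosen by name, as all genes of the count table whose symbol starts with Timm or Tomm followed by a digit, without pseudogene symbols. This rule took 26 of 55487 genes, of which 25 encode translocase subunits or relatives of them and 1, Tomm6os, is a gene on the strand opposite to Tomm6. The rule uses symbols and no measured value, although the group was proposed with earlier results of these data known. RNA-seq of the 3′ ends of polyadenylated transcripts had been performed on 26 mice in 4 groups. Knockout mice (tg) carried floxed alleles (fl/fl) of the targeted gene and the Villin-creERT2 transgene, whose promoter drives the inducible Cre in IECs and not in the other cells of the gut wall. Control mice (wt) carried the same floxed alleles without the transgene. All mice, controls included, were 8 to 12 weeks old and received 5 daily injections of tamoxifen, and tissue was taken 3 days (7 mice per genotype) or 7 days (6 mice per genotype) after the last injection. The groups are therefore tg.3d, wt.3d, tg.7d and wt.7d in the labels, and each library is from 1 mouse.

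Most mitochondrial proteins are encoded in the nucleus, made in the cytosol and imported. The TOM complex of the outer membrane, with its receptors and the TOM40 channel, is the common entry gate. From there the small TIM chaperones carry hydrophobic proteins through the intermembrane space, the TIM22 translocase inserts carrier proteins into the inner membrane, and the TIM23 translocase with its motor takes proteins with a presequence into the matrix. The inner membrane steps, by TIM22 and TIM23, depend on the membrane potential that the respiratory chain builds up.

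Library totals lay between 3720168 and 6338016 counts. Values per mouse are counts scaled to the library total (CPM), and the tests were edgeR's quasi-likelihood F test with Benjamini-Hochberg adjustment over all genes tested, where a gene was called at an adjusted p under 0.05. Fold changes are given as log2 of knockout over control with their standard error (SE). The sum of 8 epithelial markers was at least 2220 CPM in every library. In 7 libraries the summed markers of pancreatic acinar cells and stomach exceeded 10000 CPM, which was the case for tg.3d replicates 1 and 2, wt.3d replicates 2, 3 and 5, tg.7d replicate 4 and wt.7d replicate 2, and counts are also given without them. The tissue piece holds epithelium, lamina propria and muscle, so that fewer cells of a type and less RNA per cell cannot be told apart.

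At 3 days, 0 of the 25 tested genes were called, against 1.43% of the 20760 genes tested. An unadjusted p under 0.05 was reached by 4 of them, and the DESeq2 Wald test also called 0. The adjusted p of the members lay between 0.196 and 0.997 in edgeR. Their median log2 fold change was 0.18, where that of all genes was -0.031. Log2 fold changes above 0 were measured for 17 genes and below 0 for 7, in a range from -0.34 for Tomm34 to 0.76 for Timm8a1. No member had groups that did not overlap in CPM, which 0.848% of all genes had. Leaving out tg.3d replicate 1, which is high in stomach markers, gave 2 calls, Timm10 and Timm13, while the calls over all genes rose from 297 of 20760 to 779 of 20975.

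At 7 days, 15 of the 25 tested genes (60%) were called, 10 higher and 5 lower in knockout mice. The background was large, as 38.5% of the 20259 genes tested were called at this day, 19.7% higher and 18.8% lower. The 10 rises comprised Tomm40 of the TOM channel, 3 of 6 tested small TIM genes, 2 of 5 TIM23 subunits, the motor anchor Timm44, Tomm22, Tomm5 and Tomm34. The 5 falls comprised 3 TIM23 subunits, Timm22 and the Tomm40l row. The median log2 fold change of the members was 0.31, against -0.019 for all genes. Of the members, 7 were higher and 4 lower with no overlap between the genotypes in CPM, where 22.6% of all genes did not overlap (11% higher and 11.6% lower). Without the libraries high in acinar or stomach markers the count was again 15, the same genes in the same direction. Timm8a2, with at most 3 counts in any library, was not tested at either day.

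**Figure D1:**
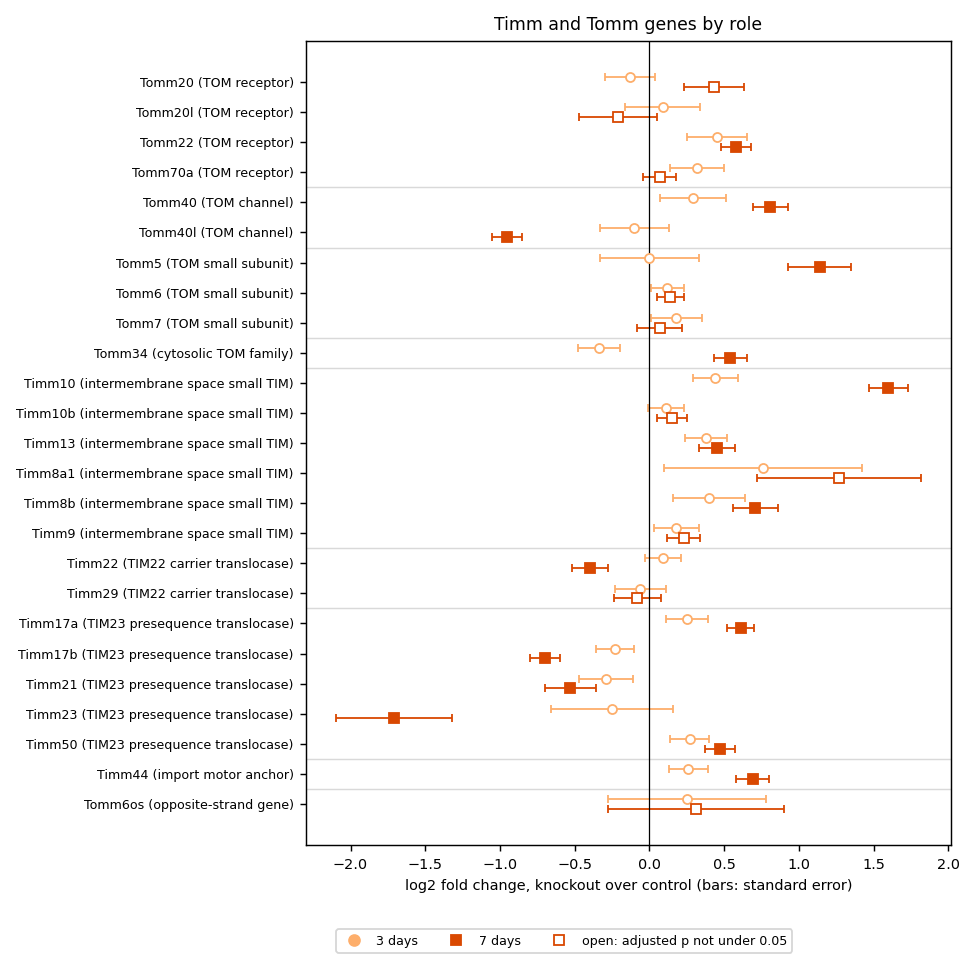
Log2 fold change of knockout over control (x axis) with its standard error (bars) for the 25 tested genes (y axis, by role), at 3 days (circles) and 7 days (squares), filled where the adjusted p is under 0.05. No circle is filled, and at 7 days 10 filled squares lie right and 5 left of zero.

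The marker levels of the tissue moved with the genotype at 7 days. Of 8 enterocyte markers 7 were called lower, and their sum lay between 3000 and 4250 CPM in tg.7d against 13700 to 26700 CPM in wt.7d mice. Of 8 markers of crypt proliferation and stem cells 7 were also called lower, with sums of 185 to 283 CPM against 777 to 936 CPM. Of 8 general epithelial markers 4 were lower and 1 higher, with sums of 4230 to 4870 CPM against 5390 to 6330 CPM. Of the lymphocyte and plasma cell markers, 4 were lower and 2 higher, with sums of 213 to 442 CPM against 514 to 1250 CPM, and of 8 smooth muscle markers 0 were called by edgeR (725 to 1040 CPM against 641 to 1150 CPM). At 3 days 0 genes of these lists were called. The spread within the groups was wide at that day, with enterocyte sums of 607 to 12300 CPM in tg.3d and 728 to 11200 CPM in wt.3d mice. The absence of calls at 3 days therefore does not show that the tissue pieces were alike. At 7 days 1 of 2 tested stomach markers was also called lower. The stomach sums, 1.58 to 4.5 CPM in tg.7d and 5.64 to 12000 CPM in wt.7d mice, did not overlap. A stomach covariate therefore cannot be fully told apart from genotype at this day. The part of these shifts in the results at 7 days was not tested.

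Among the receptors of the outer membrane, Tomm22, the central receptor that also organises the TOM complex, rose at 7 days, and the other 3 did not pass. Tomm22 was at 40.6, 42.4 and 48.7 CPM (lowest, median and highest) in tg.7d mice and at 26.4, 29.2 and 34.2 CPM in wt.7d mice. Every tg.7d mouse lay above every wt.7d mouse. The log2 fold change was 0.58 (SE 0.10, adjusted p = 0.00014, edgeR). Tomm70a, the receptor for carrier proteins, had a log2 fold change of 0.07 (SE 0.11) and Tomm20, the presequence receptor, one of 0.43 (SE 0.20, adjusted p = 0.096, edgeR). Counts of Tomm20 are uncertain, since the end of its transcript is at least 90% identical to those of several processed pseudogenes. Tomm20l, a relative of Tomm20, had a log2 fold change of -0.21 (SE 0.26).

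Of the pair of TOM channel genes, Tomm40 rose at 7 days, and the row of Tomm40l, whose reads are shared with another gene, fell. Tomm40, which encodes the pore, was at 80.5, 89.5 and 112 CPM in tg.7d mice and at 38.9, 57.3 and 62.9 CPM in wt.7d mice, with no overlap. Its day 3 levels were 35.9, 72.6 and 87.3 CPM in tg.3d and 39.5, 59.4 and 70.3 CPM in wt.3d mice, so that the genotypes overlapped widely. The log2 fold change was 0.81 at 7 days (SE 0.12, adjusted p = 3.9e-05, edgeR) and 0.29 at 3 days (SE 0.22). The row of Tomm40l, a relative of Tomm40, was at 18, 19.1 and 22.2 CPM in tg.7d and at 32.2, 40.6 and 42.7 CPM in wt.7d mice. This row was lower in every tg.7d mouse, by -0.95 (SE 0.10, edgeR adjusted p = 7.5e-07). In wt.3d and tg.3d mice it ranged from 14.1 to 35.3 and from 10.2 to 29.5 CPM, with a log2 fold change of -0.10 (SE 0.23).

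The fall of the Tomm40l row cannot be assigned to Tomm40l. On GRCm38 the gene lies at chr1:171216011-171222514 on the minus strand and shares 3304 exon bases with Nr1i3 on the opposite strand. Nr1i3 encodes the nuclear receptor CAR, which regulates the metabolism of drugs and bile acids. The counting states no strand option, and the last 300 bases of a Tomm40l transcript lie inside exons of Nr1i3. The ratio of Tomm40l to Nr1i3 counts was between 0.846 and 1.09 in the 26 libraries (median 0.948), and Nr1i3 had a log2 fold change of -1.13 at 7 days (SE 0.10). Reads of these genes cannot be told apart.

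**Figure D2:**
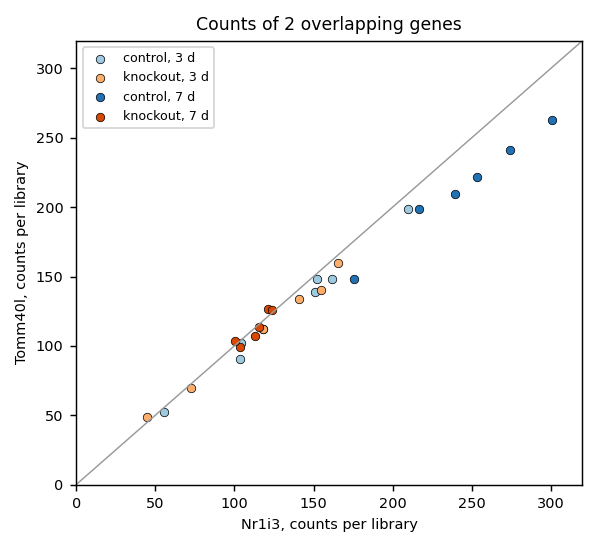
Counts of Tomm40l (y axis) against counts of Nr1i3 (x axis) in each library, coloured by group, with the line of equal counts. The points follow the line, with ratios from 0.846 to 1.09.

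Of the small subunits that stabilise the TOM complex, Tomm5 rose at 7 days while Tomm6 and Tomm7 did not pass. Tomm5 was at 7.43, 9.77 and 13.9 CPM in tg.7d mice and at 3.05, 4.84 and 6.36 CPM in wt.7d mice. The genotypes did not overlap, with a log2 fold change of 1.14 (SE 0.21, adjusted p = 0.00027, edgeR). At 3 days its levels were 0.755, 5.55 and 6.56 CPM in tg.3d and 3.16, 5.50 and 6.99 CPM in wt.3d mice, where the lowest value stands for 3 counts. At 7 days the log2 fold changes of Tomm6 (0.14, SE 0.09) and Tomm7 (0.07, SE 0.15) did not pass. Tomm6 shares 859 exon bases with Gm21981, whose counts ran with it in every library at a ratio of 1.01 to 1.07, and Tomm6os shares exon bases with 4 genes and had a mean of 4.75 counts at 7 days.

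Tomm34, a cytosolic protein that binds chaperones and preproteins, had log2 fold changes of opposite sign at the 2 days. On day 3 it had 16.1, 21.9 and 26.8 CPM in tg.3d and 21.8, 26.5 and 42.4 CPM in wt.3d mice, with overlap and a log2 fold change of -0.34 (SE 0.14, adjusted p = 0.29, edgeR). On day 7 it had 19.2, 23.1 and 26.3 CPM in tg.7d and 13.3, 15.7 and 19.1 CPM in wt.7d mice. Here each tg.7d mouse was above each wt.7d mouse, with a log2 fold change of 0.54 (SE 0.11, adjusted p = 0.00044, edgeR). Between the days the median moved from 21.9 to 23.1 CPM in knockout mice and from 26.5 to 15.7 CPM in control mice. These levels are on library totals, and the control difference between the days was -0.51 on the log2 scale with TMM factors and -0.87 with totals.

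The small TIM chaperones of the intermembrane space rose or did not pass. Of 6 tested genes 3 were called higher at 7 days and 0 lower in edgeR, beside 19.7% and 18.8% of all genes. All 6 had log2 fold changes above 0, from 0.15 to 1.60. Timm10, which forms the hexameric TIM9-TIM10 chaperone for carrier proteins, had the largest rise of all called members. It was at 48.4, 59.8 and 69.1 CPM in tg.7d and at 15.4, 19.9 and 25.6 CPM in wt.7d mice, without overlap, which gave a log2 fold change of 1.60 (SE 0.13, adjusted p = 1.3e-08, edgeR). Its day 3 levels were 17.4, 28.1 and 32.8 CPM in tg.3d and 17.2, 20.6 and 25.1 CPM in wt.3d mice. The groups overlapped at that day, with a log2 fold change of 0.44 (SE 0.15, adjusted p = 0.20, edgeR). Timm9, its partner in the hexamer, had a log2 fold change of 0.23 (SE 0.11, adjusted p = 0.098, edgeR) at 7 days.

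Timm8b and Timm8a1 encode related small TIM proteins, which pair with TIM13. Timm8b was at 49.7, 69.9 and 81.4 CPM in tg.7d and at 31.8, 42.4 and 54.5 CPM in wt.7d mice, where only the edges of the groups overlapped. It rose by a log2 fold change of 0.71 (SE 0.15, adjusted p = 0.00076, edgeR). At 3 days its ranges of 16.4 to 60.1 CPM in tg.3d and 21.6 to 38.8 CPM in wt.3d mice overlapped. Timm8a1 had between 0 and 11 counts in a library and did not pass at 7 days (log2 fold change 1.27, SE 0.55, adjusted p = 0.079, edgeR). Timm13 rose by 0.45 at 7 days (SE 0.12, adjusted p = 0.0052, edgeR), but by 0.22 (adjusted p = 0.13, edgeR) once the acinar and stomach levels were covariates. The stomach covariate did not overlap between the genotypes. Without the libraries high in these markers Timm13 rose by 0.46 (adjusted p = 0.0031, edgeR). Timm10b, the membrane-bound small TIM of the TIM22 complex, had 0.15 (SE 0.10) and shares 376 exon bases with Gm45799 on the same strand.

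Of the TIM22 translocase, Timm22 and Timm29, the 2 members listed with this role, did not rise. This does not cover the whole complex, and Agk, a partner gene of inner membrane insertion, was called higher at 7 days. Timm22, its channel subunit, was at 13.8, 20.7 and 22.9 CPM in tg.7d and at 23.7, 26.3 and 27.6 CPM in wt.7d mice. The genotypes lay next to each other without overlap, and the fall was -0.40 on the log2 scale (SE 0.12, adjusted p = 0.015, edgeR). At 3 days its levels overlapped, at 20 to 32.6 CPM in tg.3d and 21.8 to 28.8 CPM in wt.3d mice. Timm29, a further subunit of this complex, had a log2 fold change of -0.08 at 7 days (SE 0.16).

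**Figure D3:**
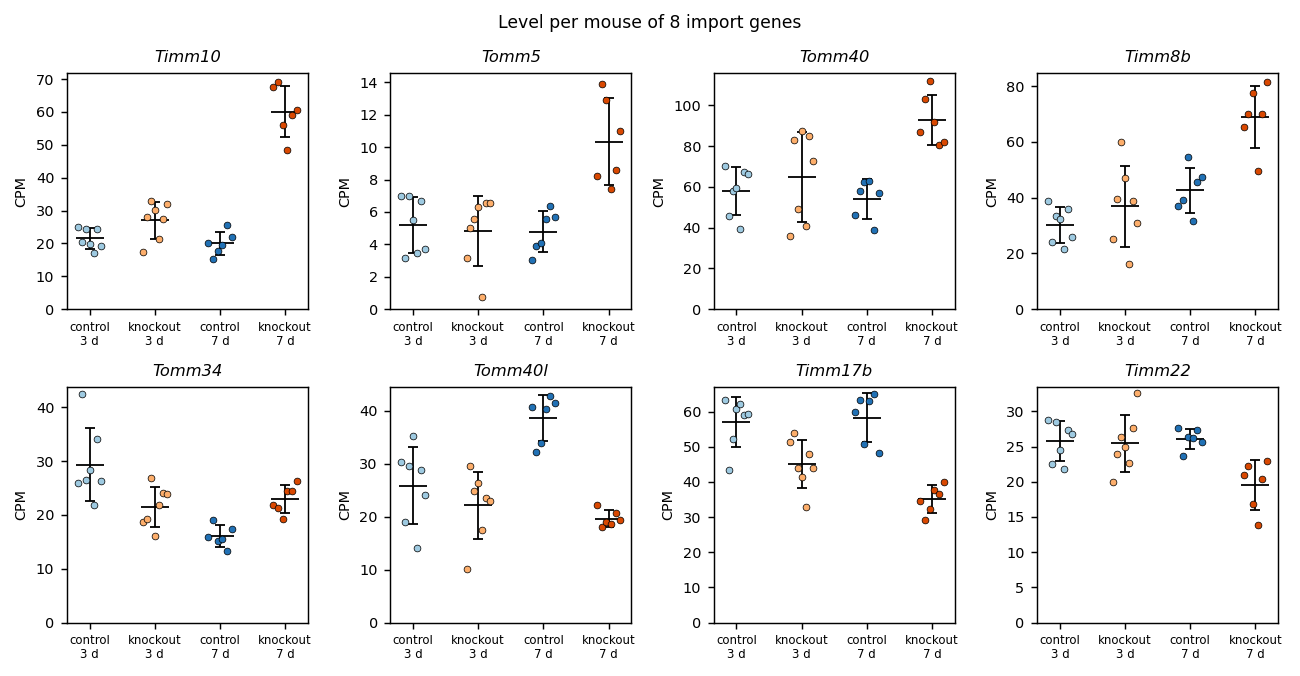
CPM per mouse (points; y axes start at 0) of 8 genes in the 4 groups, with mean and standard deviation (bars). In Timm10 the tg.7d mice, at 48.4 to 69.1 CPM, lie above all other mice, and Timm17b has its lowest median in the tg.7d group, 35.7 CPM.

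In the TIM23 translocase all 5 Timm genes listed with this role were called at 7 days, 2 higher and 3 lower, beside 38.5% of all genes. Romo1, which was listed with the motor partners, did not pass (log2 fold change 0.19, SE 0.14). Of the falls, that of Timm23 rests on few counts. That of Timm21 did not pass with acinar and stomach covariates, of which the stomach level did not overlap between the genotypes. TIM17 lines the translocation path together with TIM23, and mice have a pair of genes for it. Timm17a was at 54.8, 65.7 and 70.0 CPM in tg.7d and at 36.0, 43.8 and 47.0 CPM in wt.7d mice, higher in each knockout mouse (log2 fold change 0.61, SE 0.09, adjusted p = 2.2e-05, edgeR). Timm17b was at 29.2, 35.7 and 40.1 CPM in tg.7d and at 48.3, 61.3 and 64.9 CPM in wt.7d mice, lower in each knockout mouse (log2 fold change -0.70, SE 0.10, adjusted p = 2.2e-05, edgeR). The paralogues thus parted, and neither had overlapping genotypes. Exons of opposite-strand genes overlap Timm17b by 117 bases, Tomm40 by 258 and Timm8b by 81. At 3 days neither paralogue passed, with log2 fold changes of 0.25 (SE 0.14) for Timm17a and -0.23 (SE 0.13) for Timm17b. Each has a processed pseudogene with a similar transcript end, Gm7180 for Timm17a (98.3% identity) and Gm8387 for Timm17b (92.7%).

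The log2 ratio of Timm17a to Timm17b counts within a library does not depend on the library total. It was 0.88 ± 0.24 (SD, n = 6) in tg.7d and -0.43 ± 0.28 (SD, n = 6) in wt.7d mice, with ranges of 0.66 to 1.23 and -0.85 to -0.04. The difference of 1.31 had p = 0.0022 in a two-sided exact permutation test (adjusted 0.0043 over 2 tests), the minimum that 924 permutations allow. In the earlier pair of groups the ratio was -0.03 ± 0.38 (SD, n = 7) in tg.3d and -0.49 ± 0.24 (SD, n = 7) in wt.3d mice, with overlap. The difference of 0.46 had p = 0.023 in the exact permutation test (adjusted 0.023). This ratio was chosen for a test after its genes' values were seen, so these p-values are no independent support.

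**Figure D4:**
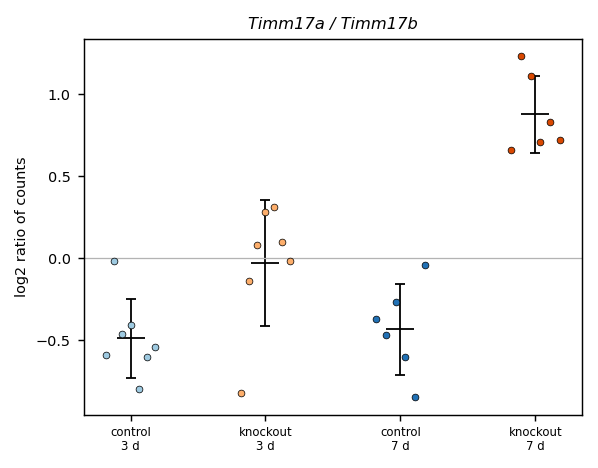
Log2 ratio of Timm17a to Timm17b counts per mouse (points, y axis) in the 4 groups, with mean and standard deviation (bars). The tg.7d mice lie at 0.66 to 1.23 and the wt.7d mice at -0.85 to -0.04.

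The sequence before the start of Timm17a, Timm17b and Tomm40 is shown because the Timm17 paralogues moved apart and Tomm40 rose with Timm17a. The stretches are from RefSeq promoters of GRCm38.p6, cut to bases outside annotated exons, and run 5′ to 3′ on the strand of the gene. Capitals mark CCAAT, the core of a box that the factor NF-Y binds, or its reverse complement ATTGG. The stretches are chr1:135313779-135313898 (minus strand), chrX:7899270-7899335 (plus strand) and chr7:19715439-19715558 (minus strand).
Timm17a: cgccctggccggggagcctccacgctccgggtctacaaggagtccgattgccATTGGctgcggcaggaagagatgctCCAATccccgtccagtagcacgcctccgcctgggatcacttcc
Timm17b: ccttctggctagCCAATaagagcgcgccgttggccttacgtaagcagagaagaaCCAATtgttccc
Tomm40: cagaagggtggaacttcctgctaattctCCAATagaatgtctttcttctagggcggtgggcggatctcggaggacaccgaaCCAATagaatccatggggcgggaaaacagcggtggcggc

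Promoters, from 250 bases before to 50 after the start, were matched for 23 of the 26 members, without Tomm7, Tomm40l and Timm21. CCAAT on either strand was in 7 of the 23 (30.4%) and in 41.1% of all genes of the table, and Tomm40 held 5 copies. Both the gene that rose and the gene that fell of the Timm17 pair hold it. The ETS motif CCGGAAGT was in 6 members (26.1%, Timm10, Timm10b, Timm23, Timm29, Timm8a2 and Tomm70a) and in 4.31% of genes. The NRF1 motif, by its palindromic core with 1 free base, was in 2 members and 5.19% of genes, the YY1 motif AAGATGGCG in 1 member and 1.64% of genes, and TGATGNAA, bound by pairs of ATF4 and C/EBP factors, in 0 members and 4.51% of genes. These matches are descriptions of letters in these windows.

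The other TIM23 subunits also differed in direction at 7 days. Timm50, the receptor of TIM23 in the intermembrane space, rose by 0.47 (SE 0.10, adjusted p = 0.0010, edgeR), and its ranges of 33.3 to 45.4 CPM in tg.7d and 24.3 to 35.4 CPM in wt.7d mice met at the edge. Timm21, which links TIM23 to the TOM complex and the respiratory chain, fell by 0.53 on the log2 scale (SE 0.17, adjusted p = 0.016, edgeR). With acinar and stomach levels as covariates the log2 fold change was -0.50 and did not pass (adjusted p = 0.075, edgeR). Without the libraries high in these markers it was -0.64 and passed (adjusted p = 0.0093, edgeR). Timm23, the channel subunit, had a log2 fold change of -1.71 (SE 0.39, adjusted p = 0.0016, edgeR), but from 1 to 7 counts per library in tg.7d and 7 to 24 in wt.7d mice. The end of its transcript is identical to that of Gm10273, which had 0 counts in all libraries together, and reads of these genes cannot be told apart by this end.

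Timm44, which anchors the motor to TIM23 on the matrix side, rose. It was at 85.3, 98.1 and 107 CPM in tg.7d and at 47.9, 64.7 and 73.1 CPM in wt.7d mice. The genotypes did not overlap (log2 fold change 0.69, SE 0.11, adjusted p = 5.2e-05, edgeR). At 3 days the ranges of 57.9 to 103 CPM in tg.3d and 64.5 to 85 CPM in wt.3d mice overlapped. Without Tomm40l, Timm23 and Tomm6os, whose reads are shared or few, 10 of 22 tested members were higher and 3 lower at 7 days. Of all genes, 19.7% were higher and 18.8% lower at this day. This trim was not planned, and it takes out the falls of Tomm40l and Timm23 but no rise. It keeps Tomm6, whose reads are shared, and Timm8a1, whose reads are few, neither of which was called.

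Whether the genotype effect differed between the days was tested by the interaction of genotype and day over the 26 libraries. It was called for 4 of the 25 tested members (16%), against 18.4% of 19604 genes (8.64% higher and 9.74% lower), a share close to that of all genes. The effect was higher at 7 days for Timm10, by 1.18 (SE 0.21, adjusted p = 0.00011, edgeR), Tomm34, by 0.90 (SE 0.18, adjusted p = 0.00048, edgeR), and Tomm5, by 1.15 (SE 0.41, adjusted p = 0.048, edgeR). It was lower for the Tomm40l row, by -0.83 (SE 0.27, adjusted p = 0.030, edgeR). The call of Tomm5 was lost in 17 of the 26 fits that left out 1 mouse, with values of 0.96 to 1.25, and that of Tomm40l in 5, with values of -0.96 to -0.73, while Timm10 and Tomm34 passed in all 26. Both calls were also lost with the replicate block, and that of Tomm5 with DESeq2 size factors, with no filter on low counts and without the libraries high in acinar or stomach markers. For Timm17a (0.38, SE 0.16), Timm17b (-0.45, SE 0.17) and Tomm40 (0.54, SE 0.27) the change between the days did not pass.

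Control mice of the 2 days also differed, where day and any processing batch cannot be told apart. Between wt.7d and wt.3d mice 10 of 26 members (38.5%) were called, 9 higher and 1 lower at 7 days, against 36% of 20646 genes (19.7% higher and 16.3% lower). The higher rows were those of Tomm40l, Timm8b, Timm17a, Tomm7, Timm13, Timm22, Timm17b, Timm23 and Tomm70a, with log2 differences of 0.38 to 1.16. Reads of the Tomm40l row are shared with Nr1i3, which differed by 1.03 (SE 0.16), and Timm23 had a mean of 9.46 counts. The lower gene was Tomm34 (-0.51, SE 0.13, adjusted p = 0.0074, edgeR). This comparison depends on the scaling. With library totals in place of TMM factors the median of all genes was -0.413, and 5 of 26 members were called, 2 higher and 3 lower, beside 9349 of 20646 genes. Marker levels differed between these control groups as well. Enterocyte sums were 728 to 11200 CPM in wt.3d and 13700 to 26700 CPM in wt.7d mice, and smooth muscle sums 1840 to 3290 CPM and 641 to 1150 CPM, neither with overlap. The part of this in the differences between the days was not tested. The interaction shares these control mice with the comparisons within each day.

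A list of 26 partner genes of import gave the wider pathway. At 3 days 1 was called, Hspa9, and at 7 days 11 were higher and 4 lower (57.7%), beside the 38.5% of all genes. Hspa9 encodes mortalin, the matrix HSP70 that drives the motor. It was at 280, 627 and 944 CPM in tg.3d and at 181, 323 and 366 CPM in wt.3d mice, and at 864, 977 and 1270 CPM in tg.7d and 208, 222 and 239 CPM in wt.7d mice. The genotypes overlapped at 3 days (log2 fold change 1.17, SE 0.22, adjusted p = 0.0095, edgeR) and lay far apart at 7 days (2.21, SE 0.11, adjusted p = 3.1e-11, edgeR).

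Other motor genes rose at 7 days as well. Of the 8 on the list 4 were called higher and 0 lower in edgeR, beside 19.7% and 18.8% of all genes. An unadjusted p under 0.05 in edgeR was reached by 5. The fifth was Dnajc19, which was lower, with a log2 fold change of -0.58 (SE 0.27). Grpel2, a nucleotide exchange factor of mortalin, was at 20.5, 23.1 and 28.3 CPM in tg.7d and at 11.0, 13.1 and 14.8 CPM in wt.7d mice (log2 fold change 0.88, SE 0.13). Dnajc15, a J-domain protein of the motor, was at 42.6, 51.8 and 60.4 CPM against 27.3, 29.3 and 37.3 CPM (0.79, SE 0.10). Neither overlapped between the genotypes, and Grpel1 was the remaining motor gene that rose. In the MIA pathway, which oxidises the small TIM proteins, Gfer rose from 25.6, 28.6 and 34.1 CPM in wt.7d to 42.6, 56.8 and 60.6 CPM in tg.7d mice (0.93, SE 0.11). Chchd4 also rose (0.63, SE 0.11), with overlap between the genotypes. Aifm1, the remaining gene of this list, did not pass (-0.30, SE 0.14, adjusted p = 0.093, edgeR).

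The 4 partner genes that fell at 7 days were Mtch2, Mtch1, Oxa1l and Immp1l. Other genes of the same roles were higher in knockout than in control mice. For outer membrane assembly these were Mtx2 (log2 fold change 0.87, SE 0.15) and Dnajc11 (0.52, SE 0.10). For inner membrane insertion this was Agk (0.91, SE 0.24), and for the processing peptidases Xpnpep3 (0.62, SE 0.16) and Immp2l (0.52, SE 0.19). On library totals the Agk median moved from 12.6 CPM in tg.3d to 8.63 CPM in tg.7d mice. In controls it moved from 13.3 CPM in wt.3d to 4.85 CPM in wt.7d mice, a log2 difference of -0.91 (SE 0.21) with TMM factors. The genotypes overlapped in Agk, Xpnpep3 and Immp2l. Mtch2, an insertase of the outer membrane, was at 107, 123 and 130 CPM in tg.7d and at 200, 234 and 246 CPM in wt.7d mice (log2 fold change -0.90, SE 0.10). Oxa1l, which inserts proteins into the inner membrane from the matrix, was at 81.2, 84.5 and 93.2 CPM against 122, 151 and 185 CPM (-0.80, SE 0.12). In both, each tg.7d mouse was lower than each wt.7d mouse. Immp1l, a subunit of the inner membrane peptidase, had overlapping groups (-0.39, SE 0.12). Exons of opposite-strand genes overlap Oxa1l by 232 bases (Slc7a7), Grpel1 by 411 (Tada2b) and Dnajc19 by 178 (Fxr1). The part of shared reads in the counts of these partners was not tested.

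**Figure D5:**
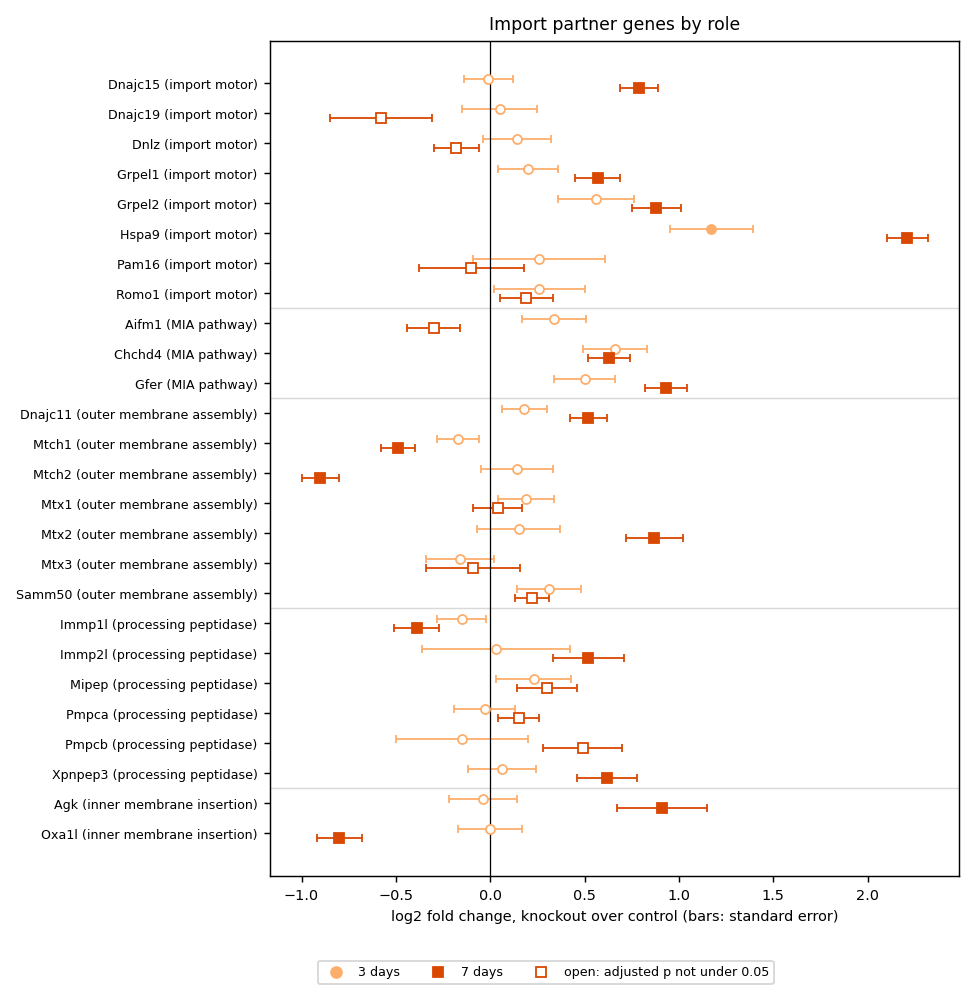
Log2 fold change of knockout over control (x axis) with its standard error (bars) for 26 partner genes (y axis, by role) at 3 days (circles) and 7 days (squares), filled where the adjusted p is under 0.05. Hspa9 has the largest values, 1.17 and 2.21.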

How the data were processed

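QuantSeq 3′ libraries of 26 mice were analysed from deposited tables, in which the authors give an estimated count for each gene. Per the paper's methods and the submitters' processing notes, reads were trimmed (cutadapt 2.10), aligned to GRCm38 with Subread and counted on exons with featureCounts 2.0.1, with fractions for reads on several genes and no stated strand option. Of the values 95% were whole numbers. Although the tests had been planned for whole counts, some values are fractions and were rounded. The deposited CPM table was not used. The 92 spike-in entries sum to 0.

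Groups follow the labels. The targeted gene is not reported here. Each day was fitted separately in R 4.3.3 with edgeR 4.0.16 (TMM, quasi-likelihood F test, Benjamini-Hochberg), without the genes that were zero in more than a share of 0.5 of the samples of either genotype. The interaction and the control groups of the days were fitted likewise. SE is the log2 fold change over the square root of F. Counts of 3 per library were taken as the floor, and depth sets counting error only. DESeq2 1.42.0, other scalings and filters, covariates, a replicate block and each mouse left out were alternatives. The scripts were tested on simulated data.

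All members are named. Values per mouse are given for genes past the threshold at 3 days or in the interaction, for the 3 largest rises and falls at 7 days with a mean of at least 100 counts, for paralogue pairs, and for partners past the threshold at 3 days and the 6 with the smallest adjusted p at 7 days. Tomm22, Timm44 and the ranges of other genes were added after their values were seen. The members and lists were chosen with earlier results of these data known. Overlaps are from GENCODE M21 (GRCm38), and transcript ends were compared with blastn 2.17.0 over 300 bases (at least 100 aligned, 90% identity).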

Additional observations from a re-analysis of the deposited data

Results flagged for a closer look

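Single mice stood apart from the rest of their group in 7 of 100 gene and group combinations, where chance gives about 5. These were Timm8a1 in wt.7d replicate 4 (0.962 CPM, others 0.169 to 0.385), Timm10b in tg.3d replicate 1 (50.3 CPM, others 34.9 to 40.5), Timm13 in tg.7d replicate 4 (84.5 CPM, others 108 to 120) and Tomm20 in tg.7d replicate 2 (12.5 CPM, others 7.53 to 9.06). The others were Tomm20l in wt.7d replicate 1 (3.39 CPM, others 2.21 to 2.61), Tomm22 in tg.3d replicate 1 (18.3 CPM, others 35.0 to 47.2) and Tomm6 in wt.3d replicate 1 (93.7 CPM, others 69.3 to 79.3). Of these libraries, tg.3d replicate 1 had 10500 CPM of stomach markers and tg.7d replicate 4 had 15300 CPM of acinar markers, and the part of this in the values was not tested.

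The genotype effect differed between 7 and 3 days, by the interaction in edgeR, for Timm10 (1.18 on the log2 scale), Tomm5 (1.15), Tomm34 (0.90) and the Tomm40l row (-0.83).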

How the results depend on the processing

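No gene called in a comparison changed sign under the alternatives run, but the split of calls moved where the scaling or filter changed. At 7 days the count of called members was 13 to 15 under the 10 other settings and 15 to 16 with each mouse left out. At 3 days it was 0 under the 10 other settings and 0 to 2 with each mouse left out. Members whose effect differed between the days numbered 4, 3 higher and 1 lower, beside 3603 of 19604 genes. With filterByExpr they numbered 7 (3 higher and 4 lower), beside 3793 of 15897 genes. With the replicate block they numbered 2, beside 3000 of 19604 genes. With each mouse left out they numbered 2 to 6, the 2 being without tg.3d replicate 2. With DESeq2 size factors the split was 2 higher and 3 lower, beside 3577 of 19604 genes called. Between the control groups the count was 10, 9 higher and 1 lower, then 5 with library totals only (2 higher and 3 lower, the lower ones being Tomm34, Timm50 and Tomm20) and 9 to 11 with each mouse left out. Leaving out the libraries high in acinar or stomach markers, an alternative chosen after seeing the data, gave 0 at 3 days, 15 at 7 days, 3 for the interaction and 7 between the control groups. The causes of these shifts were not tested. Library totals in place of TMM moved the median log2 fold change of all genes from -0.031 to -0.135 at 3 days. Mice with the same replicate number did not deviate together, with correlations of -0.28 to 0.30 at 3 days and -0.11 to 0.23 at 7 days, and 2 of 7 and 2 of 6 pairs correlated best with their own number. The replicate block gave 0 at 3 days, 15 at 7 days and 10 between the control groups. The Timm17a to Timm17b difference was 0.40 to 0.59 at 3 days and 1.23 to 1.39 at 7 days with each mouse left out. Depth limits Timm8a1, Timm8a2, Timm23 and Tomm6os, which had few counts.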
